A study of Mus musculus with 2 samples.

Results

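The Toll-like receptors are membrane receptors that recognise microbial molecules, and here their genes were followed across the myeloid cells and B cells of livers bearing melanoma metastases in Vsig4 KO and WT mice. The set was fixed by gene symbol, Tlr1, Tlr2, Tlr3, Tlr4, Tlr6, Tlr7, Tlr8, Tlr9, Tlr12 and Tlr13, which is 10 of the 31253 genes counted, with no threshold on values. All 10 were present in both count matrices. Each was read in 8 gates, that is, groups of cells defined by raw counts of marker transcripts, so that every receptor has 8 gate values in each library.

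Toll-like receptors fall into a group at the cell surface and a group in endosomes. At the surface, TLR2 pairs with TLR1 or TLR6 to bind lipoproteins of bacteria, and TLR4, with its partner MD-2 and the co-receptor CD14, binds lipopolysaccharide. In endosomes, TLR3 binds double-stranded RNA, TLR7 single-stranded RNA, TLR9 DNA with unmethylated CpG motifs and TLR13 bacterial ribosomal RNA, while mouse TLR12 takes part in sensing profilin of Toxoplasma. Most of them signal through the adaptor MyD88 to NF-kappa B and interferon regulatory factors, and TLR3 signals through TRIF. Plasmacytoid dendritic cells (pDC) are known for TLR7 and TLR9, cross-presenting conventional dendritic cells (cDC1) for TLR3, and monocytes, macrophages and neutrophils for TLR2 and TLR4.

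Vsig4 KO (Vsig4-/-) mice lack the complement receptor VSIG4 (CRIg) that Kupffer cells, macrophages residing in liver sinusoids, carry on their surface, and were compared with WT mice. Livers of both genotypes carried metastases of B16F10, an established mouse melanoma line. Viable leukocytes, negative for the dye DAPI and positive for CD45, were sorted from digested liver and profiled by droplet single-cell RNA-seq, with 1 library per genotype. The labels used here give no age, sex or number of animals per library. With 1 library each, no difference between genotypes could be tested, and every interval below covers counting error only, not the variation between mice or between preparations. Intervals of summed counts and of their ratios take each count as independent, so they also leave out variation between cells of 1 library.

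The Vsig4 KO library held 5799 barcodes with 25119175 UMIs (unique molecular identifiers, 1 per captured transcript) and the WT library 6929 barcodes with 28537154 UMIs, and they shared 54 barcodes. After filtering, 5479 cells with a median of 3264 UMIs remained in Vsig4 KO and 6491 cells with a median of 3033 UMIs in WT. The Vsig4 gene had 3 UMIs in Vsig4 KO cells, against 43 in WT cells, or 0.128 against 1.64 counts per 1000000 counts of the same cells (CPM). Both libraries had 1 UMI of Xist and at least 440 UMIs of each of the Y-linked genes Ddx3y, Uty, Kdm5d and Eif2s3y, which bears on Tlr7, Tlr8 and Tlr13, since these lie on the X chromosome. Eif2s3y had 698 UMIs in Vsig4 KO and 1299 in WT, and the other 3 Y-linked genes had ratios of 1.03 to 1.12. Tlr13 lies 9.85 Mb from Vsig4 on that chromosome, with Tlr8 and Tlr7 70.9 and 71.0 Mb away.

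The gates held 60 pDC, 39 cDC1, 93 cDC2, 159 classical monocytes, 25 non-classical monocytes, 95 macrophages, 33 neutrophils and 1927 B cells in Vsig4 KO, and 92, 82, 211, 352, 96, 195, 43 and 1795 cells of the same types in WT. Every marker used to define a gate was detected in that gate in both libraries. Cells entered a gate by UMIs of these same markers, so this does not test the gates. The 8 gates held 32.4 to 79.3% of the UMIs of a receptor in the kept cells of a library, and the rest lay in other cells. A group of 126 Vsig4 KO and 173 WT cells met the pDC gate and the cDC2 gate and was left out of both. Because that group is large beside the pDC gate, a wider pDC gate that keeps those cells as pDC (170 Vsig4 KO and 243 WT cells) is given beside the pDC values. It was chosen after the data were seen. Defining Kupffer cell markers were rare in both libraries: 5 Vsig4 KO and 14 WT macrophages had at least 2 of Clec4f, Cd5l, Marco and Timd4, so receptor values of macrophages come mostly from other C1q-expressing macrophages.

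Promoter windows of 4 receptors are shown because results below turn on these receptors: Tlr2 and Tlr13 in monocytes and neutrophils, Tlr3 in cDC1, and Tlr9 in B cells. Each window runs from 250 bases before to 50 bases after the gene's start, 5′ to 3′ on the gene's strand, as RefSeq gives it for GRCm38.p6. Capitals mark letters that match a kappa B motif (GGG and CC with any 5 bases between them), a core motif of PU.1 (GAGGAA), a transcription factor of myeloid and B cells, or an interferon response element (GAAA and GAAA with any 2 bases between them), on either strand, and overlapping matches run together.
Tlr2 (chr3:83841559-83841858, minus strand): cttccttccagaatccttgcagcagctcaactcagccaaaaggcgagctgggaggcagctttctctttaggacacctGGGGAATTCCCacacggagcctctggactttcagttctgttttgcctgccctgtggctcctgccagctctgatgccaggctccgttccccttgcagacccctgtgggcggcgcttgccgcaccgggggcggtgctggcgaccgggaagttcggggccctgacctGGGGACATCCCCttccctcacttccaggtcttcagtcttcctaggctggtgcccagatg
Tlr13 (chrX:106143025-106143324, plus strand): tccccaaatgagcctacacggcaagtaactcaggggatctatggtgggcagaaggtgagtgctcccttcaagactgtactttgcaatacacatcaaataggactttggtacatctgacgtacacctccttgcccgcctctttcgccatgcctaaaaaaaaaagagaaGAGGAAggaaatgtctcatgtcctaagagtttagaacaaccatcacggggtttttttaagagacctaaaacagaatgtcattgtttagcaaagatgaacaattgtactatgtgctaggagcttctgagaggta
Tlr3 (chr8:45410331-45410630, minus strand): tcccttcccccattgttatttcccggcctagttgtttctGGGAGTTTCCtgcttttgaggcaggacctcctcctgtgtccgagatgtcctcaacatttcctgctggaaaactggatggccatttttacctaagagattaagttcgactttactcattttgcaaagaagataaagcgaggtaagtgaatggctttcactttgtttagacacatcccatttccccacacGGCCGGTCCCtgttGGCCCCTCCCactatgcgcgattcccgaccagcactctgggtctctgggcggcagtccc
Tlr9 (chr9:106222348-106222647, plus strand): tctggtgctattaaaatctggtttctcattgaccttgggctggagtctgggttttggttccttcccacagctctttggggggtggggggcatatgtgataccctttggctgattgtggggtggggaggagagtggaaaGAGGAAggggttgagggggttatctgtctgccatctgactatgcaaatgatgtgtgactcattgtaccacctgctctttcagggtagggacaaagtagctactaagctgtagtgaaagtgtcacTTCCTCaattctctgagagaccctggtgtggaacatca

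The Tlr2 window held 5 overlapping kappa B matches in 2 clusters and the Tlr3 window 3, and neither held a PU.1 core. The Tlr9 window held 2 PU.1 cores and the Tlr13 window 1, and neither held a kappa B match. Of the 8 receptors with a window in the table (all but Tlr4 and Tlr7), 4 had a PU.1 core (Tlr1, Tlr8, Tlr9 and Tlr13) and 4 a kappa B match (Tlr2, Tlr3, Tlr6 and Tlr12), while only Tlr6 had an interferon response element. Counted by window, as in the comparison that follows, it was 4 of 10 for the PU.1 core, 4 of 10 for the kappa B motif and 1 of 10 for the interferon response element, since Tlr1 and Tlr6 have 2 windows each. Across all 32851 windows of the same length, 28.3% held the PU.1 core, 50.8% the kappa B motif and 3.44% the interferon response element. These are letter matches, not sites of binding.

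Across the 80 combinations of receptor and gate, 37 had at least 20 UMIs over both libraries and are called measured, and 11 had no UMI in either library. A ratio is the CPM of Vsig4 KO over that of WT, and a difference is counted as higher or lower from 1.5-fold upward. By that size, 12 measured combinations were higher in Vsig4 KO and 5 were lower. Of all measured genes, 6.21 to 15.2% were higher and 4.51 to 20.1% lower, depending on the gate. The counts of combinations depend on the settings: with cells that meet 2 gates kept, 7 were higher and 9 lower, after thinning every cell to 1000 UMIs 4 and 2, and with no minimum of UMIs 18 and 20. In 6 of the 12 and 1 of the 5, the 95% interval of the ratio left out 1. Without regard to size, 9 measured ratios had an interval above 1 and 1 below it: Tlr2 in cDC2, both monocyte gates and macrophages, Tlr13 in classical monocytes and neutrophils, Tlr7 and Tlr8 in macrophages, Tlr9 in B cells, and, below 1, Tlr4 in B cells. Shares of all genes are not given here for intervals or for the other settings, so those counts have nothing to be read against.

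**Figure D1:**
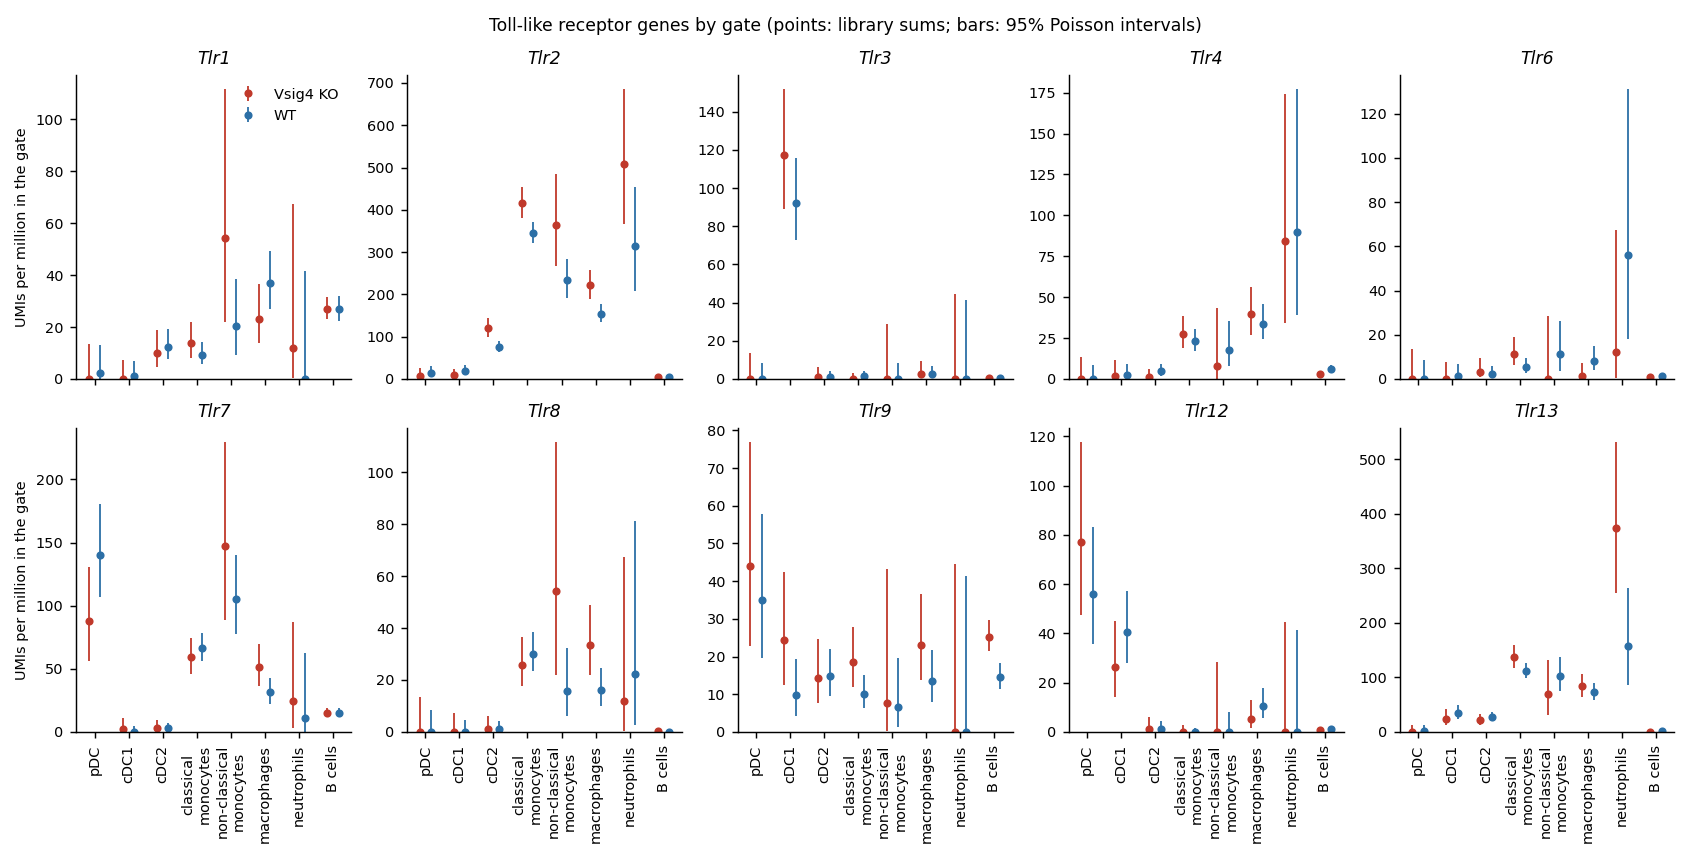
CPM (y axis, linear, a separate scale per receptor) of the 10 Toll-like receptor genes in 8 gates (x axis), with Vsig4 KO in red left of WT in blue; points are sums over all cells of a gate in 1 library and bars are 95% Poisson intervals. Among these gates, Tlr3 was almost restricted to cDC1, at 117 CPM in Vsig4 KO and 92.4 CPM in WT, and Tlr2 reached its highest values in monocytes and neutrophils.

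Counts of receptors past 1.5-fold are read beside the share of all measured genes past it in the same direction. In classical monocytes, 3 of 8 measured receptors were higher, against 7.25% of the 8355 genes measured there, and 0 were lower, against 9.77%. The 3 were Tlr1, Tlr6 and Tlr9, with 37, 26 and 45 UMIs over both libraries, and the interval of each ratio held 1. Macrophages had 3 of 7 higher, where 9.07% of 7367 genes were, and 1 lower, where 10.1% were. In neutrophils, the 2 measured receptors were both higher, against 15.2% of 1114 genes, and 0 were lower, against 20%. Non-classical monocytes had 1 of 3 higher, where 14.5% of 3994 genes were, and 0 lower, where 20.1% were. Median log2 ratios of the measured receptors were 0.28 in classical monocytes, 0.52 in macrophages, 0.97 in neutrophils and 0.48 in non-classical monocytes, and those of all measured genes were 0.00, -0.01, -0.06 and -0.05 in the same gates.

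In the dendritic cell and B cell gates, the counts went both ways. Of 3 measured receptors in pDC, 0 were higher, against 10.8% of 5043 genes, and 1 was lower, against 14.8%. cDC1 had 1 of 5 higher, where 15.2% of 6204 genes were, and 2 lower, where 8.82% were. In cDC2, 1 of 4 was higher, against 8.35% of 8080 genes, and 0 were lower, against 8.96%. B cells had 1 of 5 higher, where 6.21% of 10777 genes were, and 1 lower, where 4.51% were. Median log2 ratios of the receptors were 0.33 in pDC, -0.51 in cDC1, -0.19 in cDC2 and 0.01 in B cells, beside -0.05, 0.09, 0.01 and 0.00 for all measured genes. Scaling by the median gene instead of the total moved cDC1 values by 0.12 on the log2 scale and those of each other gate by 0.05 or less after rounding.

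**Figure D2:**
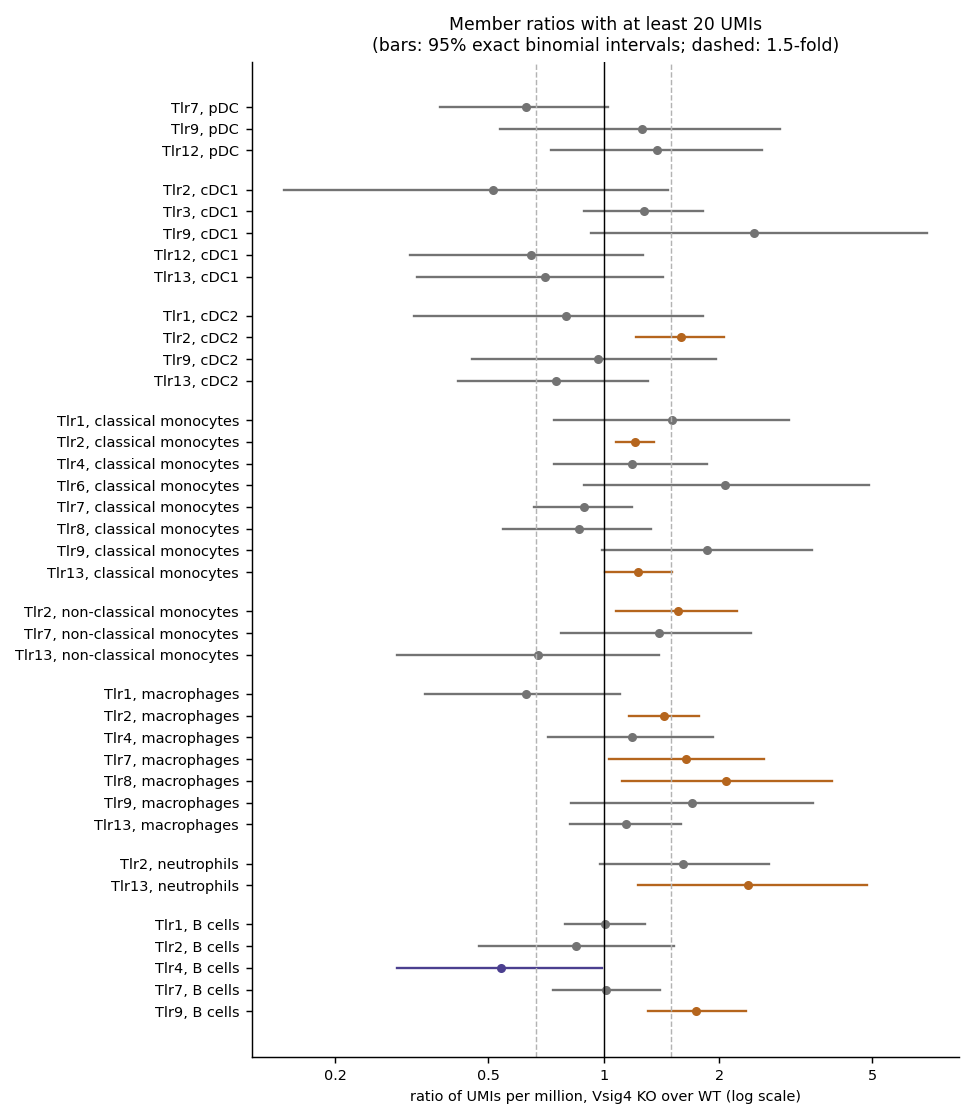
Ratio of CPM, Vsig4 KO over WT (x axis, log scale), of the 37 combinations of receptor and gate with at least 20 UMIs, grouped by gate down the page; points are ratios, bars 95% exact intervals, dashed lines 1.5-fold either way. The 9 ratios whose interval lies above 1 are in brown and the 1 below 1, Tlr4 in B cells, in violet.

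Summed over the 10 receptors, the monocyte, macrophage and neutrophil gates had higher Toll-like receptor CPM in Vsig4 KO. The sum was 710 CPM in Vsig4 KO and 603 CPM in WT in classical monocytes (ratio 1.18, 95% interval 1.08 to 1.28), and 485 against 380 CPM in macrophages (1.28, 1.11 to 1.46). Neutrophils had 1027 against 652 CPM (1.57, 1.11 to 2.24) and non-classical monocytes 704 against 514 CPM (1.37, 1.06 to 1.75). The intervals of these 4 ratios left out 1. Those of cDC2 (177 against 145 CPM, ratio 1.22, 0.994 to 1.5), B cells (78.1 against 72.0 CPM, 1.09), cDC1 (207 against 202 CPM, 1.02) and pDC (216 against 250 CPM, 0.867) did not. In T cells, a comparison gate in which these genes are low, the sum was 16.5 CPM in Vsig4 KO and 21.9 CPM in WT (0.754). With cells thinned to 1000 UMIs the macrophage ratio was 1.09. Tlr2 made up much of the sums. In Vsig4 KO it gave 515 of 878 UMIs in classical monocytes, 173 of 378 in macrophages, 42 of 85 in neutrophils and 47 of 91 in non-classical monocytes. In WT it gave 757 of 1322, 193 of 474, 28 of 58 and 104 of 229 in the same order. The sums are therefore not separate from the Tlr2 values below.

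Among the surface receptors, Tlr2 had a higher level in Vsig4 KO in all 5 gates where it is prominent, and the interval of the ratio left out 1 in 4 of them. Classical monocytes had 515 Tlr2 UMIs in 159 Vsig4 KO cells, against 757 in 352 WT cells, or 417 against 345 CPM (ratio 1.21, 95% interval 1.08 to 1.35). In macrophages it stood at 222 CPM in Vsig4 KO and 155 CPM in WT, from 173 and 193 UMIs (1.44, 1.16 to 1.77). Non-classical monocytes had 364 against 234 CPM, from 47 and 104 UMIs (1.56, 1.08 to 2.22), and of the 47 UMIs in Vsig4 KO, 12 came from 1 cell. In cDC2 the level was 120 CPM in Vsig4 KO and 76.0 CPM in WT, from 109 and 128 UMIs (1.58, 1.22 to 2.06). Neutrophils had 507 against 315 CPM, from only 42 and 28 UMIs, and the interval of that ratio, 1.61, reached 0.976. With cells thinned to 1000 UMIs it was 1.03.

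The share of cells with a Tlr2 UMI was 73.6% in Vsig4 KO and 62.8% in WT classical monocytes, and with every cell thinned to 1000 UMIs it was 34.6% and 28.0%, with overlapping intervals (27.2 to 42.5% and 23.4 to 33.1%). The thinning matters because Vsig4 KO cells were deeper, with medians of 7457 UMIs in Vsig4 KO and 6173 in WT classical monocytes. T cells, in which Tlr2 should be low, had a Tlr2 UMI in 0.734% of Vsig4 KO and 1.13% of WT cells, at medians of 4095 and 3605 UMIs. The cDC2 ratio was 1.19 when cells that meet 2 gates were kept, and that of non-classical monocytes 1.07 when cells were thinned. In cDC2, summed CPM of the 5 classical monocyte markers was 576 in Vsig4 KO and 707 in WT. Own markers of the classical monocyte gate summed to 4605 CPM in Vsig4 KO and 4046 CPM in WT, and classical monocyte markers in macrophages to 1430 and 1021 CPM. Their part in the Tlr2 difference was not tested.

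Over all kept cells, Tlr2 went the other way, with 55.1 CPM in Vsig4 KO and 71.3 CPM in WT (ratio 0.773, 0.719 to 0.830). The gates rich in Tlr2 were smaller in Vsig4 KO: classical monocytes made up 2.90% of Vsig4 KO and 5.42% of WT cells, macrophages 1.73% and 3.0%, cDC2 1.70% and 3.25%, non-classical monocytes 0.456% and 1.48%, and neutrophils 0.602% and 0.662%. Of the 10 receptors, only Tlr9 was higher over all kept cells of Vsig4 KO, at 13.8 against 10.2 CPM (1.35, 1.15 to 1.60), while ratios of the other 9 ran from 0.598 for Tlr6 to 0.971 for Tlr1. B cells, in which Tlr9 is found, made up 35.2% of Vsig4 KO and 27.7% of WT cells. A value over all cells joins fewer cells of a type and less RNA per cell, which cannot be told apart there.

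**Figure D3:**
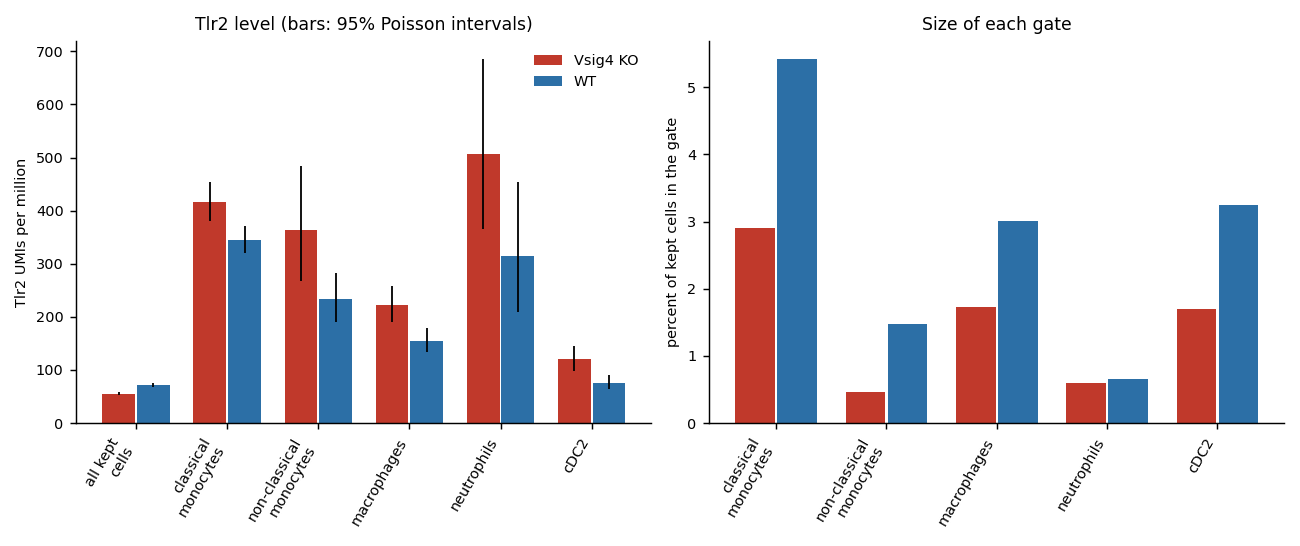
Left, Tlr2 CPM (y axis, from 0) over all kept cells and in 5 gates, Vsig4 KO in red left of WT in blue, with 95% Poisson intervals; right, the percent of kept cells in each of the 5 gates. Tlr2 was at 55.1 CPM in Vsig4 KO and 71.3 CPM in WT over all cells but higher in Vsig4 KO in each gate, and each gate held a smaller percent of Vsig4 KO cells.

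The order of gates for Tlr2 was nearly shared by both libraries. In Vsig4 KO it ran from neutrophils (507 CPM) through classical monocytes (417 CPM) and non-classical monocytes (364 CPM) to macrophages (222 CPM) and cDC2 (120 CPM), and the first 3 had overlapping intervals. In WT, classical monocytes (345 CPM) and neutrophils (315 CPM) overlapped at the top, and non-classical monocytes (234 CPM), macrophages (155 CPM) and cDC2 (76.0 CPM) followed. cDC1, pDC and B cells lay at 20 CPM or below in both libraries, with 5 UMIs in Vsig4 KO and 16 in WT cDC1. The cDC1 ratio of 0.514 had an interval of 0.147 to 1.47. The genes whose pattern over 10 gates in both libraries was most like that of Tlr2 were Igsf6, Emilin2 and Mtus1 (Pearson r of 0.98, 0.97 and 0.97 over 20 points on the log2(CPM + 10) scale, which share libraries and gates).

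Tlr1, a partner of Tlr2, had a different distribution, with B cells among its highest gates. It stood at 27.1 CPM in Vsig4 KO and 26.9 CPM in WT B cells, from 164 and 128 UMIs (ratio 1.01, 95% interval 0.794 to 1.28). In macrophages it was lower in Vsig4 KO, at 23.1 against 36.9 CPM from 18 and 46 UMIs (0.626, 0.342 to 1.1), opposite to Tlr2 in the same cells. Classical monocytes had 13.7 against 9.12 CPM (1.51, 0.742 to 3.03), but this ratio was 0.968 with 1 more marker required for the gate. cDC2 had 9.95 against 12.5 CPM (0.798), and non-classical monocytes 7 UMIs in Vsig4 KO and 9 in WT. Of 16 Vsig4 KO and 19 WT classical monocytes with a Tlr1 UMI, 11 and 10 also had one of Tlr2. In the whole gate, 117 of 159 Vsig4 KO and 221 of 352 WT cells had a Tlr2 UMI.

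Tlr6, the other partner of Tlr2, was sparse, with 41 UMIs in all Vsig4 KO cells and 77 in all WT cells. Its only measured gate was classical monocytes, with 14 UMIs in Vsig4 KO and 12 in WT, or 11.3 against 5.47 CPM (ratio 2.07, 0.888 to 4.90). In macrophages there was 1 Tlr6 UMI in Vsig4 KO and 10 in WT, and neutrophils had 1 and 5. Tlr1 (chr5:64924679-64933563) and Tlr6 (chr5:64952031-64960097) are similar genes that lie 18.5 kb apart on the same strand of GRCm38, and reads from stretches they share could be split between them or lost, so their levels are uncertain.

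Tlr4, the receptor for lipopolysaccharide, differed little between genotypes in the cells where it is prominent. Macrophages had 39.8 CPM in Vsig4 KO and 33.7 CPM in WT, from 31 and 42 UMIs (ratio 1.18, 0.718 to 1.93). Classical monocytes had 27.5 against 23.3 CPM, from 34 and 51 UMIs (1.18, 0.743 to 1.86). Neutrophils had the highest level in both libraries, 84.5 against 89.9 CPM, but from only 7 and 8 UMIs. The intervals in macrophages and classical monocytes are wide enough to hold differences of the size seen for Tlr2. The few cells with Kupffer cell markers had 4 Tlr4 UMIs in 5 Vsig4 KO cells and 1 in 14 WT cells, too few to compare.

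In B cells, Tlr4 was low, at 3.30 CPM in Vsig4 KO and 6.10 CPM in WT, from 20 and 29 UMIs (ratio 0.542, 0.290 to 0.991). Those UMIs came from 20 Vsig4 KO and 24 WT cells, or 1.04% and 1.34% of B cells, while T cells showed 0.133% and 0.212%. Thinned to 1000 UMIs, the ratio was 0.932. Clec4d, C5ar1 and Inhba had the patterns most like that of Tlr4 (r of 0.97, 0.96 and 0.94). Clec4d encodes a C-type lectin of myeloid cells and C5ar1 the receptor for complement C5a.

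Of the endosomal receptors, Tlr3 was almost restricted to cDC1 among the 8 gates. These gates held 65 of its 82 UMIs in Vsig4 KO and 86 of 118 in WT, and the rest lay in other cells. The cDC1 gate had 58 UMIs in 39 Vsig4 KO cells and 75 in 82 WT cells, or 117 against 92.4 CPM (ratio 1.27, 0.886 to 1.82). Every other gate had 4 or fewer Tlr3 UMIs in each library, and T cells had 0 in 1499 Vsig4 KO and 1417 WT cells, which allows a share of cells with a Tlr3 UMI of up to 0.20% and 0.212% at this depth and sets no limit on the cells that express the gene. The share of cDC1 with a Tlr3 UMI was 56.4% in Vsig4 KO and 41.5% in WT, and 12.8% and 9.76% after thinning, with median depths of 12718 and 9767 UMIs. Gcsam, Xcr1 and Snx22, all markers of the cDC1 gate, had the most similar patterns (r of 0.99, 0.99 and 0.98). Cells entered the cDC1 gate by these markers, so a high r follows from the gating and is not separate evidence. An exon of Gm45542 overlaps an exon of Tlr3 on the opposite strand, and reads from it could be told apart only by strand.

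Tlr7, the sensor of single-stranded RNA, was highest in pDC and non-classical monocytes. In pDC it was lower in Vsig4 KO, with 24 UMIs in 60 Vsig4 KO cells and 60 in 92 WT cells, or 88.0 against 140 CPM (ratio 0.629, 0.375 to 1.03). The wider pDC gate had 131 UMIs in Vsig4 KO and 204 in WT, or 116 against 151 CPM (0.770, 0.613 to 0.964). Over the alternatives tried, the pDC ratio ran from 0.631 to 0.943, so the direction held and the size did not. In the wider gate, 44.1% of Vsig4 KO and 52.3% of WT cells had a Tlr7 UMI, and 14.6% and 15.9% after thinning, with overlapping intervals. In T cells, that share was 1.2% in Vsig4 KO and 0.988% in WT.

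In macrophages, Tlr7 was higher in Vsig4 KO, at 51.4 against 31.3 CPM from 40 and 39 UMIs (ratio 1.64, 1.03 to 2.62). A Tlr7 UMI was found in 29.5% of Vsig4 KO and 12.8% of WT macrophages, at medians of 6777 and 5832 UMIs, and in 3.19% and 2.08% after thinning. After the values were seen, macrophages were parted by a UMI of Spp1, Arg1 or Gpnmb, genes of tumour-associated and lipid-handling macrophages. Cells without these genes had 73.3 CPM of Tlr7 in Vsig4 KO and 18.7 CPM in WT, from 26 and 12 UMIs (3.92, 1.91 to 8.54). Cells with them had 33.0 against 44.7 CPM, from 14 and 27 UMIs (0.739, 0.358 to 1.46). The difference between the parts was not tested. Tlr2 had ratios of 1.58 (1.18 to 2.10) without those genes and 1.32 (0.963 to 1.82) with them. For Tlr13 the ratios were 0.809 (0.483 to 1.32) without and 1.63 (1.01 to 2.64) with them. In the same order, Tlr1 had 0.551 and 0.682 and Tlr4 had 1.11 and 1.19, and each of these intervals held 1.

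Elsewhere Tlr7 was similar or thinly counted. Non-classical monocytes had 147 CPM in Vsig4 KO and 106 CPM in WT from 19 and 47 UMIs (ratio 1.39, 0.772 to 2.42), and classical monocytes 59.0 against 66.6 CPM from 73 and 146 UMIs (0.887, 0.660 to 1.18). B cells had 15.4 CPM in Vsig4 KO and 15.1 CPM in WT from 93 and 72 UMIs (1.01, 0.738 to 1.40). cDC1 and cDC2 had 5 or fewer UMIs in each library, and neutrophils 2 in Vsig4 KO and 1 in WT. Ldlrad3 had the pattern most like that of Tlr7 (r of 0.91), followed by Hivep3 and Ceacam1.

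Tlr8, a close relative of Tlr7 that lies 40.6 kb from it (chrX:167242696-167264329), was found in monocytes and macrophages. It was higher in Vsig4 KO macrophages, at 33.4 against 16.0 CPM from 26 and 20 UMIs (ratio 2.08, 1.12 to 3.93), from 14 Vsig4 KO and 17 WT cells. Over the alternatives this ratio ran from 1.49 to 4.09, the last after thinning, which left a Tlr8 UMI in 2 Vsig4 KO and 1 WT cells. In the macrophage gate, markers of classical monocytes summed to 1430 CPM in Vsig4 KO and 1021 CPM in WT, and those of cDC1 to 163 and 71.4 CPM. Markers of non-classical monocytes summed to 83.5 CPM in Vsig4 KO and 149 CPM in WT there, and those of cDC2 to 24.4 and 119 CPM. Their part in the Tlr7 and Tlr8 differences was not tested. Classical monocytes had 25.9 against 30.1 CPM from 32 and 66 UMIs (0.860, 0.545 to 1.33), and non-classical monocytes 7 UMIs in each library. Unlike Tlr7, Tlr8 had no UMI in pDC of either library, which allows up to 11 CPM in Vsig4 KO and 7.0 CPM in WT, and 1 UMI in Vsig4 KO and 0 in WT in the wider pDC gate. Klra2, Fgd4 and Sirpb1c had the most similar patterns (r of 0.95, 0.95 and 0.94).

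Tlr9, the sensor of unmethylated DNA, was higher in Vsig4 KO B cells. B cells had 153 Tlr9 UMIs in 1927 Vsig4 KO cells and 69 in 1795 WT cells, or 25.3 against 14.5 CPM (ratio 1.74, 1.3 to 2.35). Over the alternatives, the ratio ran from 1.58 to 1.76. No single cell gave more than 3 of these UMIs in either library. A Tlr9 UMI was found in 6.95% of Vsig4 KO and 3.68% of WT B cells, and after thinning in 2.01% and 1.3%, with overlapping intervals (1.43 to 2.75% and 0.829 to 1.95%). T cells, which were deeper, had it in 0 of 1499 Vsig4 KO cells and in 0.141% of WT cells.

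Every part of the B cell gate showed this direction when it was parted after the values were seen. B cells without a UMI of Fcer2a, which encodes CD23 of mature follicular B cells, had 27.6 CPM of Tlr9 in Vsig4 KO and 13.3 CPM in WT (ratio 2.08, 1.36 to 3.23). B cells with one had 23.0 against 15.8 CPM (1.46, 0.969 to 2.24). Without Egr1 or Myc, genes of recent activation, the level was 28.6 against 12.7 CPM (2.25, 1.5 to 3.42), and with them 21.8 against 16.9 CPM (1.29, 0.838 to 2.01). Tlr1 and Tlr7 had ratios of 0.831 to 1.23 in the same parts. Summed CPM of the pDC markers in the B cell gate was 18.3 in Vsig4 KO and 18.1 in WT. The classical monocyte markers summed to 75.3 CPM in Vsig4 KO and 23.4 CPM in WT there, and the part of either list in the result was not tested.

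In pDC, Tlr9 stood at 44.0 CPM in Vsig4 KO and 35.0 CPM in WT from 12 and 15 UMIs (ratio 1.26, 0.538 to 2.88), and the wider gate had 47.9 against 35.5 CPM from 54 and 48 UMIs (1.35, 0.897 to 2.03). The direction was opposite to that of Tlr7 in the same cells. In the wider gate, 24 of 170 Vsig4 KO cells had UMIs of both receptors, 51 of Tlr7 alone and 17 of Tlr9 alone, against 23, 104 and 19 of 243 WT cells. Myeloid gates had low Tlr9 levels: 18.6 against 10.0 CPM in classical monocytes (1.85, 0.988 to 3.49), 23.1 against 13.6 CPM in macrophages (1.70, 0.824 to 3.5) and 24.3 against 9.86 CPM in cDC1 (2.47, 0.927 to 6.95), where 12 UMIs in Vsig4 KO and 8 in WT were counted. These 3 ratios passed 1.5-fold, but their intervals held 1. They also moved with the settings: the cDC1 ratio was 1.05 after thinning, the macrophage ratio 1.11 with cells that meet 2 gates kept, and the classical monocyte ratio 1.38 with 1 more marker and 5.08 after thinning. Thinning left a Tlr9 UMI in only 6 Vsig4 KO and 3 WT classical monocytes, and in 1 and 2 cDC1. cDC2 had 14.4 against 14.8 CPM (0.968), and neutrophils had no Tlr9 UMI in either library. Arhgap6, Scpep1 and Snx9 had the patterns most like that of Tlr9 (r of 0.92, 0.91 and 0.89).

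Tlr13, the sensor of bacterial ribosomal RNA, showed its highest level and its largest difference with an interval above 1 in neutrophils. Only in Vsig4 KO did the neutrophil level stand apart from the next gate. In WT its interval, 86.0 to 264 CPM, overlapped that of classical monocytes, 98.2 to 127 CPM. Neutrophils had 31 UMIs in 33 Vsig4 KO cells and 14 in 43 WT cells, or 374 against 157 CPM (ratio 2.38, 1.23 to 4.84), and the alternatives gave 2.24 to 2.91. A UMI was found in 45.5% of Vsig4 KO and 27.9% of WT neutrophils, and in 33.3% and 19.4% after thinning, with wide and overlapping intervals. Marker sums were uneven in this gate: classical monocyte markers reached 1063 CPM in Vsig4 KO and 540 CPM in WT, while the neutrophil markers summed to 10484 and 10814 CPM. The part of monocyte transcripts in the Tlr13 and Tlr2 values of neutrophils was not tested, and 6 of the 31 Vsig4 KO UMIs came from 1 cell.

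Classical monocytes had 137 CPM of Tlr13 in Vsig4 KO and 112 CPM in WT from 170 and 245 UMIs (ratio 1.23, 1.01 to 1.5), but 0.849 when cells were thinned. Macrophages had 83.5 against 73.0 CPM from 65 and 91 UMIs (1.14, 0.819 to 1.59), with 0.584 after thinning. Non-classical monocytes went the other way, at 69.7 against 103 CPM from 9 and 46 UMIs (0.674, 0.290 to 1.39), as did cDC1 (24.3 against 34.5 CPM, 0.704) and cDC2 (21 against 27.9 CPM, 0.752), and each of these 3 intervals held 1. After thinning these ratios were 1.88 in non-classical monocytes and 2.23 in cDC2, on the other side of 1, and 0 in cDC1. Thinning left a Tlr13 UMI in only 3 Vsig4 KO and 8 WT non-classical monocytes, 3 and 3 cDC2, and 0 and 2 cDC1, too few to give a direction. B cells had 0 Tlr13 UMIs in Vsig4 KO and 5 in WT. Of 159 Vsig4 KO classical monocytes, 63 had UMIs of Tlr2 and Tlr13, against 106 of 352 in WT. Nlrp3, which encodes an inflammasome sensor, had the pattern most like that of Tlr13 (r of 0.96), followed by Hlx and Gk (0.95 each).

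The non-classical monocyte gate is small and mixed in Vsig4 KO. Summed CPM of the 4 mature dendritic cell markers was 1648 in 25 Vsig4 KO cells and 411 in 96 WT cells, while the gate's own markers summed to 1447 and 1426 CPM. Neutrophil markers in the gate summed to 356 CPM in Vsig4 KO and 173 CPM in WT. Tlr1 (54.2 against 20.2 CPM) and Tlr8 (54.2 against 15.7 CPM) were both nominally higher in Vsig4 KO there, but each had 7 UMIs in that library. The part of these other markers in the values of the gate, for receptors and for the pathway genes below, was not tested.

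Among the 8 gates, Tlr12 was highest in pDC and cDC1, but all 8 gates held only 32.4% of its UMIs in Vsig4 KO and 37.0% in WT. In pDC it stood at 77.0 CPM in Vsig4 KO and 56.0 CPM in WT from 21 and 24 UMIs (ratio 1.38, 0.729 to 2.58), and in the wider gate at 49.6 against 54.0 CPM from 56 and 73 UMIs (0.920, 0.638 to 1.32), so that no direction held. In cDC1 it was lower in Vsig4 KO, at 26.3 against 40.7 CPM from 13 and 33 UMIs (0.647, 0.313 to 1.26), but 2.80 after thinning. That value came from few cells, since thinning left a Tlr12 UMI in 4 Vsig4 KO and 3 WT cDC1. Monocytes and neutrophils had no Tlr12 UMI in either library. T cells had 26 UMIs in Vsig4 KO and 32 in WT, or 3.61 against 5.35 CPM, more than the 5 UMIs in B cells of each library. P2ry14, Tkfc and Med12l had the most similar patterns (r of 0.93, 0.91 and 0.88).

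Tlr11, which pairs with Tlr12 in sensing profilin and was read as part of the pathway list, was lower in Vsig4 KO cDC1, at 24.3 against 69.0 CPM from 12 and 56 UMIs (ratio 0.352, 0.172 to 0.665). Over all kept cells Tlr11 had 23 UMIs in Vsig4 KO and 74 in WT. It had fewer than 50 UMIs over both libraries in the other 7 gates.

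The genes that serve the receptors were read in the same way. A list of 47 chaperones, co-receptors, adaptors, kinases, transcription factors, negative regulators and the receptors Tlr5 and Tlr11 was taken. Of those measured, 1 of 38 was higher and 2 lower in macrophages, where 9.07% and 10.1% of all measured genes were. Classical monocytes had 2 of 42 higher and 4 lower (7.25% and 9.77% of all measured genes), non-classical monocytes 3 of 28 and 3 (14.5% and 20.1%), and neutrophils 1 of 7 and 3 (15.2% and 20%). In pDC it was 2 of 26 higher and 3 lower (10.8% and 14.8% of all measured genes), in cDC1 3 of 32 and 4 (15.2% and 8.82%), in cDC2 2 of 37 and 4 (8.35% and 8.96%), and in B cells 1 of 41 and 1 (6.21% and 4.51%).

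Unc93b1, which carries the endosomal receptors out of the endoplasmic reticulum, was at similar levels in both genotypes: 803 CPM in Vsig4 KO and 725 CPM in WT pDC, 396 against 371 CPM in B cells (ratio 1.07) and 359 against 357 CPM in macrophages (1.01). Myd88, the shared adaptor, was higher in Vsig4 KO cDC2, at 150 against 101 CPM (1.49, 1.18 to 1.88), and had ratios of 1.23 in macrophages and 1.26 in classical monocytes. Ly96, which encodes MD-2, had 38.5 against 29.7 CPM in macrophages (1.3). Irf7, the transcription factor of interferon production in pDC, stood at 91.7 CPM in Vsig4 KO and 63.0 CPM in WT pDC from 25 and 27 UMIs (1.46). Rnaset2a, which encodes a lysosomal nuclease that supplies RNA fragments to endosomal receptors, was higher in Vsig4 KO B cells, at 23.0 against 14.9 CPM (1.54, 1.15 to 2.08), although a near-identical copy, Rnaset2b, makes its count uncertain.

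Cd14, the co-receptor of Tlr4 and Tlr2, differed in both directions. It was higher in Vsig4 KO in neutrophils (2959 against 1697 CPM, ratio 1.74, 1.42 to 2.15) and classical monocytes (2836 against 1991 CPM, 1.42), similar in macrophages (1227 against 1158 CPM, 1.06), and lower in non-classical monocytes (441 against 674 CPM, 0.655, 0.484 to 0.871). Cd36, a scavenger receptor that assists TLR2, was lower in Vsig4 KO classical monocytes (8.09 against 19.2 CPM, 0.422, 0.189 to 0.855) and non-classical monocytes (85.1 against 164 CPM, 0.519, 0.248 to 0.985). In the non-classical gate, which was mixed, classical monocyte markers summed to 449 CPM in Vsig4 KO and 681 CPM in WT. In neutrophils they were uneven too, as given above. Their part in the Cd14 and Cd36 values was not tested. Pld3, an endolysosomal exonuclease that degrades TLR9 ligands, was lower in classical monocytes (29.1 against 55.2 CPM, 0.528, 0.353 to 0.771).

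Among signalling genes, Tnfaip3, which encodes the NF-kappa B inhibitor A20, was higher in Vsig4 KO cDC1 (111 against 61.6 CPM, ratio 1.81, 1.21 to 2.71) and non-classical monocytes (851 against 398 CPM, 2.14, 1.67 to 2.73). Chuk, a kinase of the NF-kappa B pathway, was higher in cDC2 (48.6 against 30.3 CPM, 1.61, 1.05 to 2.45), and Rela, a subunit of NF-kappa B, in macrophages (61.6 against 40.1 CPM, 1.54, 1.01 to 2.33). Map3k7, which encodes the kinase TAK1, was lower in macrophages (15.4 against 34.5 CPM, 0.447, 0.214 to 0.862), and Irak2, a kinase downstream of MyD88, in neutrophils (278 against 562 CPM, 0.494, 0.288 to 0.825). Irak3, a negative regulator of the same step, had 108 against 40.4 CPM in non-classical monocytes from 14 and 18 UMIs (2.68) and 0.928 in B cells. Mature dendritic cell markers in the non-classical monocyte gate summed to 1648 CPM in Vsig4 KO and 411 CPM in WT. Their part in its Tnfaip3 and Irak3 values was not tested.

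**Figure D4:**
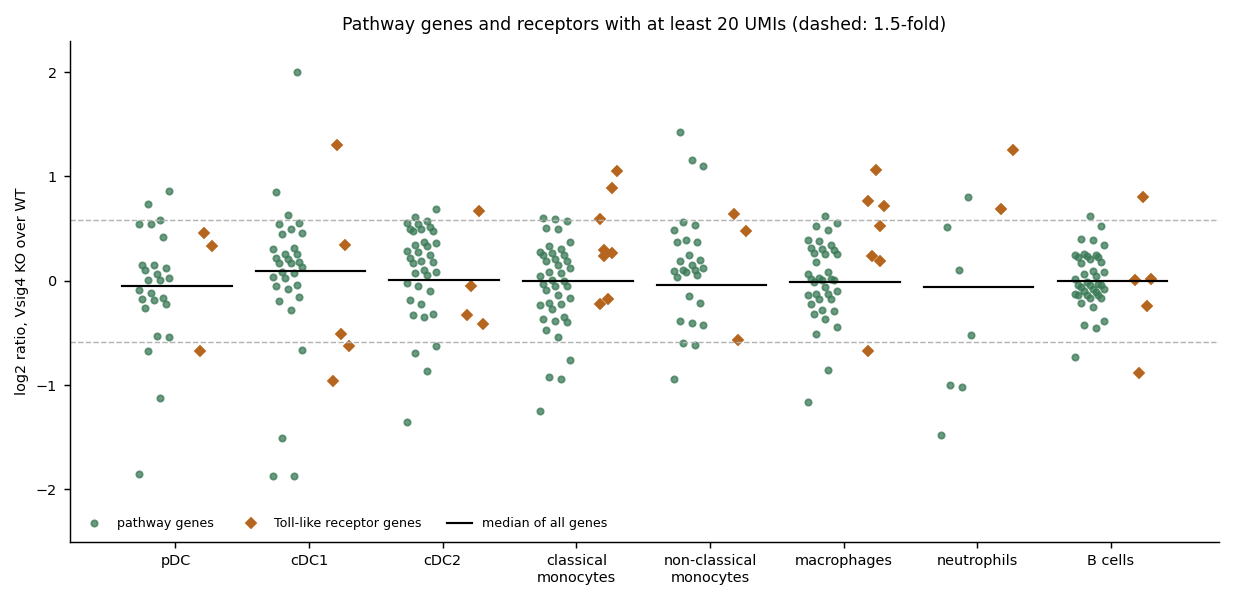
Log2 ratio, Vsig4 KO over WT (y axis), by gate (x axis) for genes of the pathway list (green circles) and Toll-like receptor genes (brown diamonds) with at least 20 UMIs; black lines are medians of all measured genes and dashed lines 1.5-fold. Receptor ratios lie mostly above the black line in macrophages (median 0.52) and neutrophils (0.97), and on both sides of it in cDC1 (median -0.51).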

How the data were processed

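The deposited files were UMI count matrices, 1 per library, and per the submitters' processing notes they were made with Cell Ranger 7.1.0 on mm10. Whether the 1 library per genotype pooled animals is not given in the sources used here.

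Cells under 200 genes or 500 UMIs, or over 10% mitochondrial UMIs, were dropped, and the highest scrublet doublet scores (scanpy 1.11.5) were removed at 0.8% per 1000 barcodes, 267 barcodes in Vsig4 KO and 381 in WT. Scrublet's own threshold marked 5 and 0, so that it did not work here. Gates counted markers with at least 1 UMI: at least 2 of Siglech, Ccr9, Cox6a2, Klk1, Pacsin1 and Smim5 for pDC, 2 of Xcr1, Clec9a, Gcsam, Snx22 and Cadm1 for cDC1, Cd209a or Clec10a with Flt3, Zbtb46 or Kmo for cDC2 (mature dendritic cells left out of both), 3 of Ly6c2, Ccr2, Chil3, F13a1 and Vcan for classical and 2 of Ace, Treml4, Adgre4, Ear2 and Eno3 for non-classical monocytes (under 5 C1q UMIs), at least 5 C1q UMIs with Csf1r for macrophages, 2 of Csf3r, Cxcr2, Retnlg, Mmp9 and Il1r2 with at least 20 S100a8 and S100a9 UMIs for neutrophils, and 3 of 6 markers, among them Cd79a, Cd79b, Ms4a1, Pax5 and Fcmr, for B cells (the other marker is not reported here). T and NK cells were gated for comparison. Cells meeting 2 gates were left out (255 in Vsig4 KO, 404 in WT), and 16.8% and 20.2% met none.

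UMIs were summed per gate and library and divided by the gate's total (CPM), with exact 95% Poisson intervals. Ratios had exact conditional binomial intervals and shares Clopper-Pearson intervals, before and after each cell was thinned to 1000 UMIs. A count of 0 allows 3 counts of the total. All intervals cover counting error only. Droplet libraries carry free RNA, so T cell shares are given as background.

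The members, lists, gates and alternatives were chosen with earlier results of these data known. Of the 47 pathway genes, up to 4 per gate with at least 50 UMIs, a 1.5-fold difference and an interval without 1 are named, together with Unc93b1, Myd88, Cd14, Ly96, Irak3 and Irf7, of which those with more UMIs are given. For similarity, the 3 genes with the highest r are named for each receptor. Gene positions are from GENCODE M21 (GRCm38) and promoter windows from RefSeq (GRCm38.p6). Values from 5′ libraries depend on transcript starts, so levels are compared between cells for 1 gene and not between genes.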

Additional observations from a re-analysis of the deposited data

How the results depend on the processing

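With 1 library per genotype no replicate could be left out and no paired analysis was possible because there are no replicates to pair. The alternatives were a mitochondrial limit of 5%, no doublet scores, 1 more marker per gate, cells of 2 gates kept in each, median-ratio scaling, thinning to 1000 UMIs, and, chosen after seeing the data, the wider pDC gate. Of 49 recomputed ratios of summed receptor UMIs, 46 stayed within the interval of the reported value; the others were 1.22 in pDC with 1 more marker, and 1.40 in cDC1 and 1.09 in macrophages after thinning. The 12 higher combinations became 7 with cells of 2 gates kept, 4 after thinning, 5 at a minimum of 50 UMIs, 4 at 2-fold and 18 with no minimum. The 5 lower ones became 9, 2, 2, 0 and 20 under the same settings in that order. Shares of all genes under these settings are not given, so these counts have nothing to be read against. Of the recomputed receptor ratios, 21 from 14 combinations lay on the other side of 1. Of these, 2 were past 1.5-fold as reported: Tlr1 in classical monocytes (0.968 with 1 more marker) and Tlr12 in cDC1 (2.80 after thinning). The smaller ones were Tlr13 after thinning (0.849 in classical monocytes, 0.584 in macrophages, 1.88 in non-classical monocytes, 2.23 in cDC2), Tlr4, Tlr7 and Tlr8 in classical monocytes with 1 more marker (0.996, 1.15, 1.01), Tlr2 in B cells without doublet scores (1.21), Tlr9 in cDC2 (1.06 to 2.23 under 4 settings), Tlr12 in pDC (0.95 with cells of 2 gates kept, 0.920 in the wider gate), and Tlr1 and Tlr7 in B cells (0.914 to 0.986 under 3 settings and 0.951 under 2). The median log2 ratio changed sign in pDC (-0.18 with cells of 2 gates kept, -0.32 after thinning, -0.67 at 50 UMIs), B cells (-0.07 with 1 more marker, -0.11 with cells of 2 gates kept), cDC1 (0.35 at 50 UMIs), cDC2 (0.13 at 50 UMIs, 0.71 after thinning) and classical monocytes (-0.24 after thinning). After thinning, the gate with the highest level took rank 2 for Tlr2 in both libraries, Tlr7, Tlr9 and Tlr12 in Vsig4 KO and Tlr8 in WT; so it did for Tlr2 in WT and Tlr7 in Vsig4 KO with 1 more marker, and for Tlr7 in Vsig4 KO with cells of 2 gates kept. Thinning leaves few UMIs, and the other causes were not tested.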
